A study of Arabidopsis thaliana with 12 samples.

Results

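Skipped exons were followed in 45 of the 511 genes whose splicing is listed in the deposited table of *Arabidopsis thaliana* plants moved from 16 °C to 25 °C. A gene was taken if at least 1 of its listed events was a skipped exon, and all of its other events were taken with it. Left out were 3 such genes annotated as kinases and 10 named genes of splicing, the clock, flowering and immunity. In the comparisons below these are counted among the other genes of the table. The 45 genes carried 64 of the 638 events: 51 skipped exons, 8 retained introns, 4 alternative 5′ sites and 1 alternative 3′ site. There was 1 skipped exon event in 40 genes, 2 in 4 genes and 3 in 1 gene.

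The plants were of the Col-0 accession and had grown for 5 weeks at 16 °C in short days (8 h light, 16 h dark). The groups were plants at 25 °C for 1, 3 and 5 days, and plants kept at 16 °C and collected on day 1, with 3 samples of about 10 pooled plants in each. The tissue was enriched for the shoot apical meristem, and its labels also name early leaves. The table holds no expression levels, so the tissue could not be checked with markers, and all 3 warm days were set against the same 16 °C group, which was younger than the plants of days 3 and 5.

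An exon is skipped when the splicing machinery joins its neighbours and leaves it out with both introns around it. Whether an exon is taken depends on the strength of its splice sites and on proteins that bind in or near it, among them SR proteins and hnRNP proteins such as PTB. Skipping a coding exon whose length is a multiple of 3 removes amino acids and keeps the frame, while other lengths shift the frame and can bring an early stop codon and decay of the transcript. In plants intron retention is the commoner form of alternative splicing and exon skipping is a rarer one.

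PSI, the percentage spliced in, was measured on a scale of 0 to 1 and is, by its name, the share of an event's transcripts that take the exon in. The sources used here do not say for single events which isoform was the reference, so levels are given as PSI. Each group has 1 value, with no value per sample, and read numbers are not given, so no difference below has an error or a test. The table lists only events that the authors had called on some warm day, so its rows were chosen on these same differences. "Higher" and "lower" below compare the 25 °C values with the 16 °C value.

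Because event positions are not part of the table, candidate exons were looked up in RefSeq (TAIR10.1). An exon was a candidate where another transcript of the gene joins the same 2 neighbouring exons without it. Of the 44 genes found in RefSeq, 24 (54.5%) held such an exon, against 49 of 466 (10.5%) of the other genes in the table and 856 of 37885 (2.26%) of all nuclear genes. The genes were chosen for a skipped exon event, and the events were found in transcripts built on the annotation, so a higher share among them follows in large part from the rule. Among genes with 2 or more RefSeq transcripts the shares were 70.6%, 12.2% and 7.67%. Exon numbers alone were alike, with a median of 8 exons in the longest transcript of the 44 genes and 9 in the other genes of the table. The 34 candidate exons measured 6 to 529 bases, and 33 of them lay between AG and GT.

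In 12 of the 24 genes, all candidate exons were coding in all transcripts that carry them. Taking the longest in each gene, 9 of 12 had a length that is a multiple of 3 (75%), against 429 of 551 (77.9%) coding candidate exons of all genes. The 551 hold every coding candidate exon of every gene, so these shares are not counted alike. Shown here are 7 of them, picked after the values were seen, to give examples of what may be taken or left out: the 4 in genes whose PSI differed by at least 0.1, then 3 in genes named below for lower PSI or for events of several types. The exon is in capitals, with 20 bases of intron before it and 10 after it, in the direction of transcription.
AT5G18230: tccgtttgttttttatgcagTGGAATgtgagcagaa
AT5G52070: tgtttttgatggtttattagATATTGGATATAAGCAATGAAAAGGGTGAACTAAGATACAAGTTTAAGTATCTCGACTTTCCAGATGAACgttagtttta
AT5G22620: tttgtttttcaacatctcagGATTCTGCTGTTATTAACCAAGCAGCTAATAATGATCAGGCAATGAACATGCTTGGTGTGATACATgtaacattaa
AT3G55080: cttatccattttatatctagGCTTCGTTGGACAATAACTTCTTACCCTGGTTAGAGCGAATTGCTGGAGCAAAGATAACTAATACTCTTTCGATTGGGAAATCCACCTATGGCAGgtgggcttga
FSD2: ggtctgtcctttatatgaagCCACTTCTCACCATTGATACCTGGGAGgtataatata
BRXL3: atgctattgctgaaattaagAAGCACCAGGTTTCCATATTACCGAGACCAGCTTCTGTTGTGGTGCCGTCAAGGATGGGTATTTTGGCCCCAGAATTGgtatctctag
AT5G14610: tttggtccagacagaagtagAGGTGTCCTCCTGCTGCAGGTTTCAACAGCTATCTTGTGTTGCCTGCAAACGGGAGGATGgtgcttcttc
The exon of AT5G18230 (minus strand, chr5:6026595-6026600) has 6 bases and is carried by 1 annotated transcript and skipped by 2. That of AT5G52070 (plus strand, chr5:21163579-21163648) has 70 bases and is carried by 2 and skipped by 1. The exon of AT5G22620 (minus strand, chr5:7518569-7518634) has 66 bases, and a shorter form of 39 bases ends at an inner GC donor site. That of AT3G55080 (minus strand, chr3:20415291-20415385) has 95 bases and is carried by 1 transcript and skipped by 3. In *FSD2* (minus strand, chr5:20773752-20773778) the exon has 27 bases, in *BRXL3* (plus strand, chr1:20228800-20228877) 78 and in AT5G14610 (plus strand, chr5:4712807-4712866) 60. These are candidates from the annotation, and no value in the table ties an event to one of them. Numbers of annotated transcripts did not go with PSI in several genes. PSI was below 0.20 in all groups in *FSD2*, *SHBY*, AT3G59300 and *ACR1*, where 3, 5, 2 and 2 transcripts carry the candidate exon and 1 skips it in each. It was at least 0.80 in all groups in AT5G14610, AT3G16565 and AT4G21660, where 1, 2 and 1 transcripts carry it and 6, 4 and 2 skip it.

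Averaged over the 3 warm days, 31 of the 51 skipped exon events had higher PSI than in the 16 °C plants, and 20 had lower PSI. Of all 638 events, 323 were higher and 315 lower. Near-identical events, named below, were each counted among the 31. A mean difference of at least 0.1 was reached by 27 events in 22 genes, 17 higher and 10 lower. Among all 638 events 57.5% reached it, 28.5% higher and 29.0% lower, so in size the skipped exon events (52.9%) were near the background, with 33.3% higher and 19.6% lower. The median absolute difference was 0.113, against 0.110 in the other genes. Without the genes that overlap another gene in RefSeq, 26 events were left, of which 9 were higher and 3 lower by at least 0.1 (46.2% in all). On day 1, 17 events were higher and 12 lower by at least 0.1, 56.9% in all, against 60.8% of all events (29.9% higher, 30.9% lower). On day 3 it was 23 and 11, or 66.7%, against 59.9% (32.1% higher, 27.7% lower). On day 5 it was 20 and 9, or 56.9%, against 56.4% (27.7% higher, 28.7% lower). Counted by event, those called higher thus outnumbered those called lower on each day, against the same 16 °C values. Events of 1 locus can share reads: near-identical PSI values, within 0.03 in all 4 groups, were found for both exons of AT1G62920, for all 3 of AT3G55080, and for the exons of the neighbouring genes AT5G18245 and AT5G18250. All of these were among the higher events. With near-identical events counted once, 47 events were left, of which 13 were higher and 10 lower by a mean of at least 0.1. Of the 45 genes, 20 overlap another gene in RefSeq. Among those lower by at least 0.1, these were AT1G06710, AT2G30600, AT2G33440, AT2G42920 and AT3G28956. Among those higher, they were AT1G19396, AT3G55080, AT5G06120, AT5G18245, AT5G22620 and AT5G52070. The libraries were made with a kit that keeps strand information, and the sources used here do not say whether PSI was estimated by strand.

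**Figure D1:**
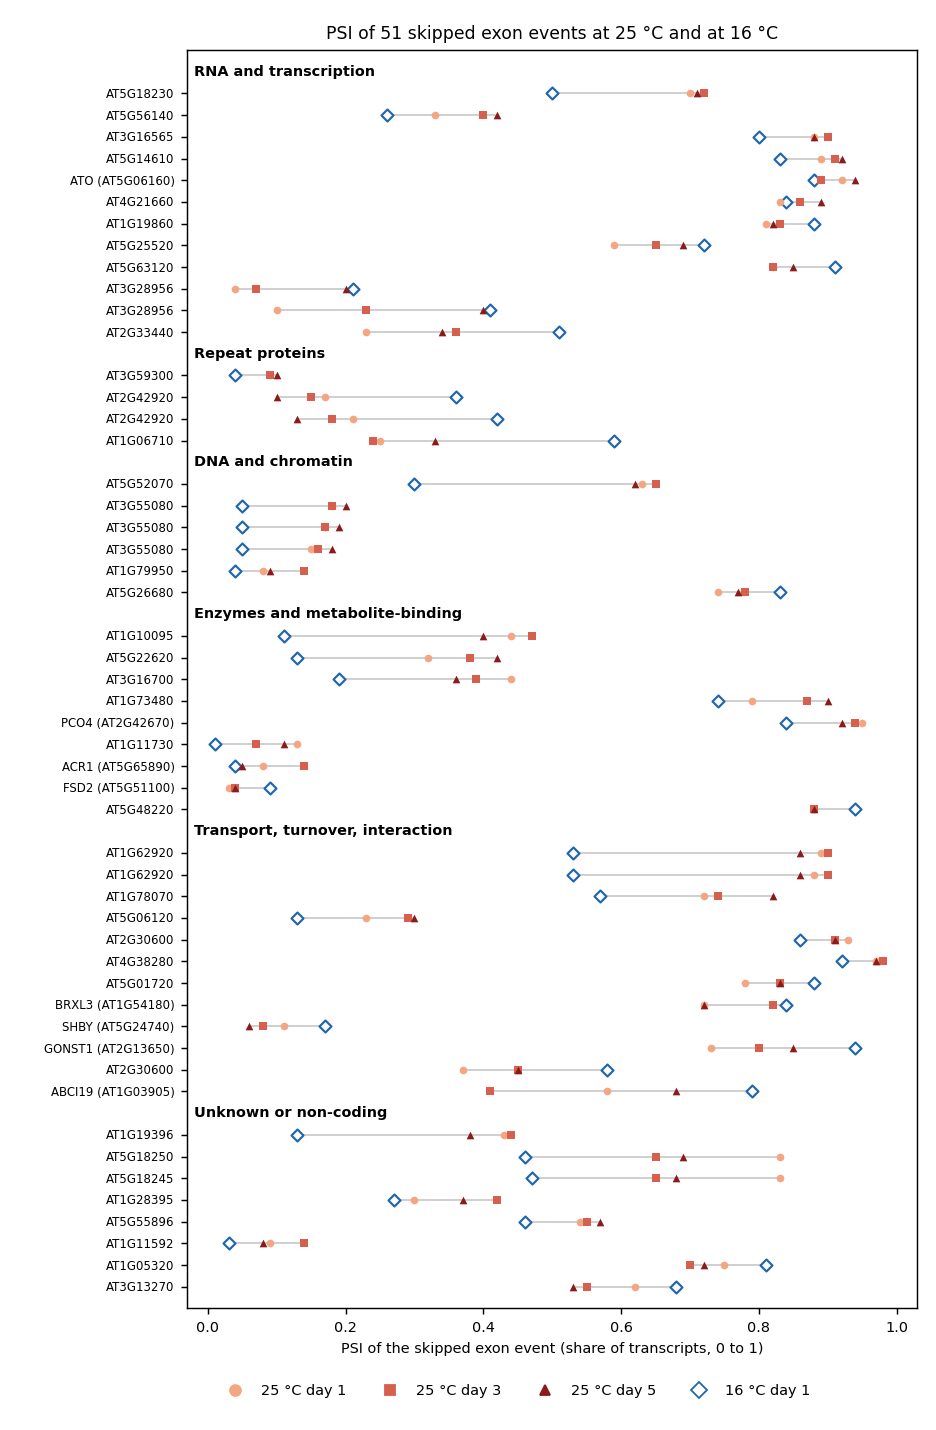
PSI (x axis, 0 to 1) of the 51 skipped exon events at 25 °C on days 1, 3 and 5 (filled marks) and at 16 °C (open diamonds), 1 row per event, grouped by what the gene encodes. Averaged over the 3 days, the widest gaps to the 16 °C mark are those of AT1G62920, AT5G52070, AT1G10095 and AT1G06710, and on a single day the widest is that of *ABCI19* on day 3 (0.41 at 25 °C, against 0.79 at 16 °C).

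Proteins of RNA processing and transcription were encoded by 11 of the genes, with 12 skipped exon events. Of these, 2 were higher and 3 lower by at least 0.1, against 28.5% and 29.0% of all events. The lower ones include both events of AT3G28956. AT5G18230 (chromosome 5, 6021379 to 6027299) encodes a NOT2/NOT3/NOT5 family protein, a kind of subunit of the CCR4-NOT complex that shortens poly(A) tails. Its PSI was 0.70, 0.72 and 0.71 on days 1, 3 and 5 at 25 °C, against 0.50 at 16 °C, a mean difference of 0.21. The 3 warm values thus lay within 0.02 of each other. AT5G56140, for an RNA-binding protein with a KH domain, had 0.33, 0.40 and 0.42 at 25 °C, against 0.26 at 16 °C, so it stood furthest from the 16 °C value on day 5. Lower PSI was seen for the RNA recognition motif gene AT2G33440, with 0.23, 0.36 and 0.34 at 25 °C, against 0.51 at 16 °C. AT2G33440 has no RefSeq locus of its own, and its coordinates in the table (chromosome 2, 14171619 to 14173226) lie inside AT2G33435.

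AT3G28956, annotated as an Rpb4 core protein of RNA polymerase II, had 2 skipped exon events that moved alike from day to day. The one of higher level had PSI of 0.10, 0.23 and 0.40 on days 1, 3 and 5 at 25 °C, against 0.41 at 16 °C. The other had 0.04, 0.07 and 0.20, against 0.21 at 16 °C. Both were thus lowest on day 1 and within 0.01 of the 16 °C value on day 5.

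The other 7 events of this group differed by less, with mean differences of -0.080 to 0.087. Among them were 2 genes whose products are related to the spliceosome. *ATO* (AT5G06160), related to a subunit of the SF3a complex, had PSI of 0.92, 0.89 and 0.94 at 25 °C, against 0.88 at 16 °C. AT4G21660, of the proline-rich spliceosome-associated family, had 0.83, 0.86 and 0.89 at 25 °C, against 0.84 at 16 °C. Both kept PSI above 0.8 in all 4 groups. Of the DEAD box genes, AT5G63120 was lower (0.82, 0.82 and 0.85 at 25 °C, against 0.91 at 16 °C), and AT5G14610 is given below with its other events. The zinc finger gene AT1G19860 had a mean difference of -0.060, the SPOC domain gene AT5G25520 of -0.077, and AT3G16565, related to alanyl-tRNA synthetases, of 0.087.

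Pentatricopeptide repeat (PPR) proteins bind RNA in chloroplasts and mitochondria, and tetratricopeptide repeats (TPR) are a related fold. Of 4 skipped exon events in 3 such genes, 3 were lower by at least 0.1, against 29.0% of all events. AT1G06710 (chromosome 1, 2055745 to 2060429), which RefSeq also lists as mitochondrial stability factor 1, had PSI of 0.25, 0.24 and 0.33 at 25 °C, against 0.59 at 16 °C, and its mean difference of -0.317 was the lowest of the 51. AT2G42920 (chromosome 2, 17858655 to 17863466) had 2 skipped exon events, with 0.17, 0.15 and 0.10 at 25 °C, against 0.36 at 16 °C, and with 0.21, 0.18 and 0.13, against 0.42. Both were lowest on day 5. AT3G59300 stood apart in direction and level, with 0.09, 0.09 and 0.10 at 25 °C, against 0.04 at 16 °C.

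Genes of DNA maintenance and chromatin (4 genes, 6 events) had 4 events higher by at least 0.1 and 0 lower, against 28.5% and 29.0% of all events. The 4 were 1 event of AT5G52070 and 3 of AT3G55080. AT5G52070 (chromosome 5, 21161132 to 21165565) encodes a protein with an agenet domain, a fold related to the Tudor domains that bind modified histones. Its PSI was 0.63, 0.65 and 0.62 at 25 °C, against 0.30 at 16 °C, a mean difference of 0.333. AT3G55080 (chromosome 3, 20411342 to 20416043) encodes a SET domain protein, the domain of many lysine methyltransferases. Its 3 events had PSI of 0.17, 0.17 and 0.19, of 0.18, 0.18 and 0.20, and of 0.15, 0.16 and 0.18 on days 1, 3 and 5 at 25 °C, against 0.05 at 16 °C for each. Because the 3 events were near-identical, they may be counted as 1. The RAD3-like helicase gene AT1G79950 and the exonuclease gene AT5G26680, which encodes a relative of the flap endonuclease FEN1, are given with their other events.

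Genes of metabolism (9 genes, 9 events) had 4 events higher by at least 0.1 and 0 lower, against 28.5% and 29.0% of all events. With so few events, the direction was not tested. AT1G10095, a member of the protein prenyltransferase superfamily, had PSI of 0.44, 0.47 and 0.40 at 25 °C, against 0.11 at 16 °C. AT5G22620, of the phosphoglycerate mutase family, had 0.32, 0.38 and 0.42 at 25 °C, against 0.13 at 16 °C. AT3G16700, of the fumarylacetoacetate hydrolase family, had 0.44, 0.39 and 0.36 at 25 °C, against 0.19 at 16 °C. In AT5G22620 the value was thus furthest from 16 °C on day 5, and in AT3G16700 on day 1. The alpha/beta hydrolase gene AT1G73480 started from a higher level, with 0.79, 0.87 and 0.90 at 25 °C, against 0.74 at 16 °C.

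The skipped exon events of the other genes of metabolism had mean differences of less than 0.1 in size. AT2G42670 (*PCO4*) encodes a plant cysteine oxidase, an oxygen-dependent enzyme that marks ERF-VII transcription factors for degradation. Its PSI was 0.95, 0.94 and 0.92 at 25 °C, against 0.84 at 16 °C. *FSD2*, for an iron superoxide dismutase of the chloroplast, had 0.03, 0.04 and 0.04 at 25 °C, against 0.09 at 16 °C. Its PSI was thus low in all groups. AT5G48220, for an aldolase-type TIM barrel protein, had 0.88 on all 3 warm days, against 0.94 at 16 °C. *ACR1*, for a protein with ACT domains, had 0.08, 0.14 and 0.05 at 25 °C, against 0.04 at 16 °C.

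Among genes of transport, protein turnover and protein interaction (10 genes, 12 events), 4 events were higher and 3 lower by at least 0.1. The shares over all events were 28.5% and 29.0%. AT1G62920 (chromosome 1, 23304313 to 23306374), which resembles the proteasome maturation factor UMP1, had the highest mean differences of the 51. Its near-identical events had 0.89, 0.90 and 0.86, and 0.88, 0.90 and 0.86 at 25 °C, against 0.53 at 16 °C for both. AT1G78070, for a WD40 repeat protein, had 0.72, 0.74 and 0.82 at 25 °C, against 0.57 at 16 °C. AT5G06120, for an ARM repeat protein, had 0.23, 0.29 and 0.30 at 25 °C, against 0.13 at 16 °C. Day 5 was thus further from the 16 °C value than day 1 was in AT1G78070 and AT5G06120, and nearer to it in AT1G62920.

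Lower PSI was found for *ABCI19* and *GONST1*. *ABCI19* (AT1G03905, chromosome 1, 993400 to 995989), of the ATP-binding cassette proteins, had 0.58, 0.41 and 0.68 at 25 °C, against 0.79 at 16 °C. *GONST1* (AT2G13650, chromosome 2, 5687316 to 5690795), which carries nucleotide sugars into the Golgi, had 0.73, 0.80 and 0.85 at 25 °C, against 0.94 at 16 °C. In both, day 5 was nearest to the 16 °C value, and *ABCI19* was lowest on day 3. The BTB/POZ domain gene AT2G30600 carried 2 skipped exon events of opposite direction: 0.37, 0.45 and 0.45 at 25 °C, against 0.58 at 16 °C, and 0.93, 0.91 and 0.91, against 0.86.

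The other genes of this group differed by less. *BRXL3*, a relative of the root growth regulator *BREVIS RADIX*, had 0.72, 0.82 and 0.72 at 25 °C, against 0.84 at 16 °C, so day 3 lay within 0.02 of 16 °C. *SHBY* (*SHRUBBY*, AT5G24740), annotated as a putative vacuolar protein sorting-associated protein, had 0.11, 0.08 and 0.06 at 25 °C, against 0.17 at 16 °C. AT5G01720, for an RNI-like protein, had a mean difference of -0.067, and AT4G38280, related to hemolysin-III membrane proteins, of 0.053 with a PSI of at least 0.92 in all groups.

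Genes of unknown function or without a protein made up the last 8, with 3 events higher and 1 lower by at least 0.1. The shares over all events were 28.5% and 29.0%. AT1G19396, for an uncharacterized protein, had 0.43, 0.44 and 0.38 at 25 °C, against 0.13 at 16 °C. The non-coding RNA gene AT5G18245 (chromosome 5, 6028020 to 6033342) and the next gene on the same strand, AT5G18250 (6033484 to 6035546), belong to 1 assembled locus. Their skipped exon events had 0.83, 0.65 and 0.68, and 0.83, 0.65 and 0.69 at 25 °C, against 0.47 and 0.46 at 16 °C. These values differ by at most 0.01 in any group, so both rows may describe 1 exon. AT3G13270, listed as a pseudogene, had 0.62, 0.55 and 0.53 at 25 °C, against 0.68 at 16 °C. The remaining 4, AT1G05320, AT1G11592, AT1G28395 and the pseudogene AT5G55896, had mean differences of -0.087 to 0.093.

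Of the 45 genes, 9 also carried 13 events of other types, and in 10 of these the mean difference had the sign of the skipped exon of the same gene. In AT1G06710 a retained intron had PSI of 0.47, 0.54 and 0.44 at 25 °C, against 0.77 at 16 °C, so both PSI values were lower. In AT1G62920, 3 retained introns had higher PSI along with the exon. They had 0.68, 0.67 and 0.60 at 25 °C, against 0.51 at 16 °C, then 0.56, 0.60 and 0.57, against 0.46, and 0.66, 0.68 and 0.60, against 0.49. AT1G11730, for a galactosyltransferase family protein, had a skipped exon at 0.13, 0.07 and 0.11 at 25 °C, against 0.01 at 16 °C. Its retained intron had 0.74, 0.82 and 0.82, against 0.54, and its alternative 5′ site 0.63, 0.71 and 0.78, against 0.56. All 3 events of AT1G11730 were thus higher, and the exon had the lowest PSI of them in every group.

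Alternative 5′ sites were higher with the exon in AT1G78070 (0.76, 0.76 and 0.80 at 25 °C, against 0.64 at 16 °C) and lower with both exons in AT2G42920 (0.36, 0.28 and 0.22, against 0.50). The helicase gene AT1G79950, whose animal relative RTEL1 limits recombination and protects telomeres, had low PSI for both of its events. Its exon had 0.08, 0.14 and 0.09 at 25 °C, against 0.04 at 16 °C, and its retained intron 0.09, 0.13 and 0.11, against 0.08.

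Opposite signs were found in 3 genes. In the DEAD box helicase gene AT5G14610 (chromosome 5, 4710563 to 4715076) the exon had 0.89, 0.91 and 0.92 at 25 °C, against 0.83 at 16 °C, and a retained intron 0.23, 0.25 and 0.21, against 0.16. Its alternative 3′ site had 0.13, 0.14 and 0.19, against 0.33 at 16 °C, and was thus the lower one of its 3 events. In AT5G26680 the exon had 0.74, 0.78 and 0.77 at 25 °C, against 0.83 at 16 °C, while its alternative 5′ site had 0.59, 0.66 and 0.68, against 0.41. In AT5G18245 a retained intron had 0.92, 0.82 and 0.76 at 25 °C, against 0.93 at 16 °C, so the intron was lowest on day 5 and the exon highest on day 1. Events of 1 gene share reads and transcripts, so these signs are not independent of each other. The reference isoform is not given for single events of any type, so a shared sign of PSI need not mean shared inclusion.

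**Figure D2:**
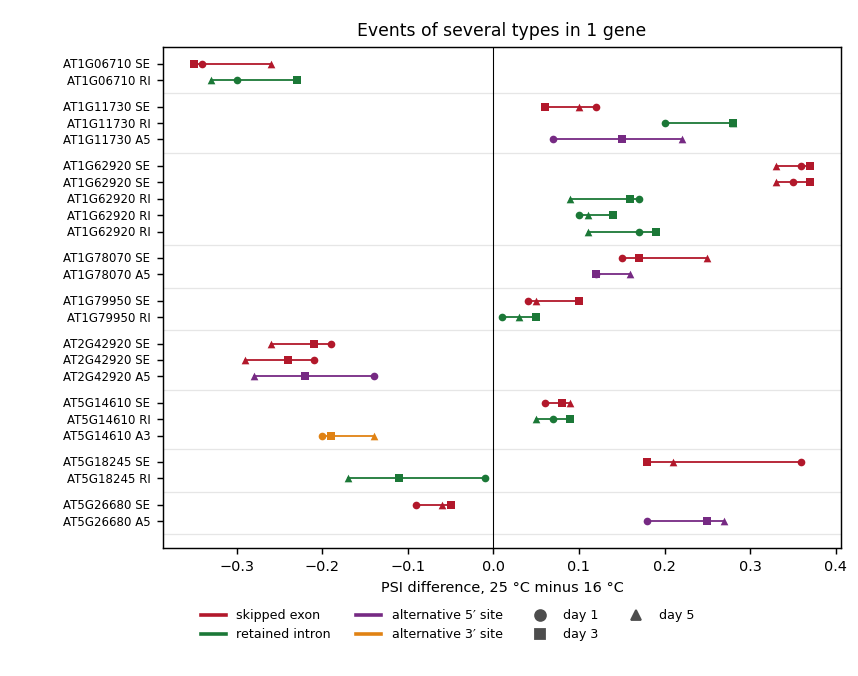
PSI difference (25 °C minus 16 °C, x axis) for the events of the 9 genes with events of several types, 1 row per event, coloured by type (SE, skipped exon; RI, retained intron; A5 and A3, alternative 5′ and 3′ sites), with a mark for each day. Rows of a gene lie on the same side of 0 except in AT5G14610, AT5G18245 and AT5G26680.

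Over the warm days, 50 of the 51 skipped exon events kept 1 sign against 16 °C (98.0%, against 97.6% of all events), which all 3 comparisons draw from the same 16 °C value. The difference was largest on day 1 for 16 events, on day 3 for 15 and on day 5 for 17, with 3 ties. Between days 5 and 1 at 25 °C the median absolute difference was 0.030, as in the other genes (0.030). A difference of at least 0.1 between these days was seen in 11 events (21.6%), against a background of 11.4% over the whole table, and 10.3% in the other genes. Whether these shares differ was not tested. Over all 51 skipped exon events, day 5 was nearer to 16 °C in 26, further away in 21 and equal to day 1 in 4, against 317, 262 and 59 of all events. In 8 of the 11, day 5 was nearer to 16 °C than day 1 was, as in AT3G28956, AT5G18245, AT5G18250, *GONST1*, *ABCI19*, AT2G33440 and AT5G25520, and in AT1G73480, AT1G78070 and AT5G22620 it was further away.

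**Figure D3:**
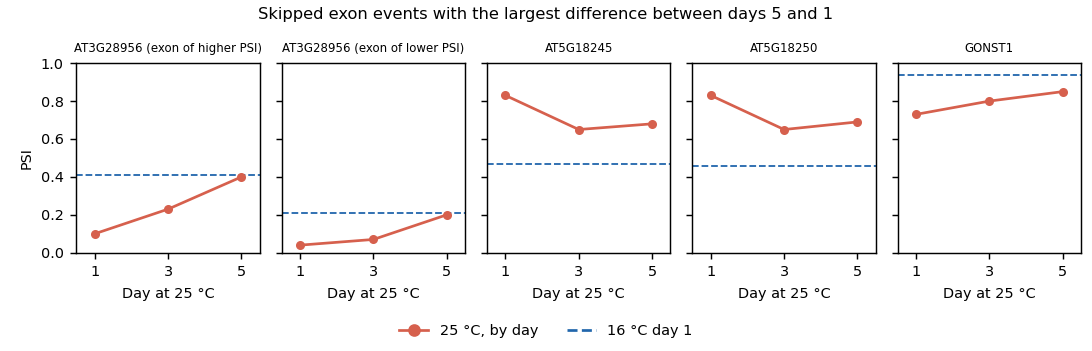
PSI (y axis, 0 to 1) by day at 25 °C (line and points) for the 5 skipped exon events with the largest absolute difference between days 5 and 1, with the 16 °C value as a dashed line. The events of AT3G28956 reach the 16 °C level by day 5, with 0.40 against 0.41 and 0.20 against 0.21, and the other 3 remain apart from it.

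The skipped exon events were also grouped by their PSI at 16 °C. Of 15 skipped exon events with PSI of 0.20 or less at 16 °C, such as those of AT1G10095 and AT3G55080, 13 were higher and 2, in *FSD2* and *SHBY*, were lower. In the other genes, 97 events were higher and 39 lower at this level. Of 15 skipped exon events at 0.80 or more, such as those of *PCO4* and *GONST1*, 7 were higher and 8 lower, against 27 higher and 98 lower events in the other genes. The 21 events between these levels were higher in 11 and lower in 10 and had a median absolute difference of 0.20, against 0.113 at the low and 0.067 at the high level. The 16 °C value sets the level and also enters the difference, so an error in it alone would move low events upward and high events downward, and PSI cannot leave the range of 0 to 1. The direction therefore cannot be told apart from either. The events of the other genes include 14 skipped exons, of the genes left out. Whether the skipped exon events of the 45 genes differ from the events of the other genes in this was not tested.

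**Figure D4:**
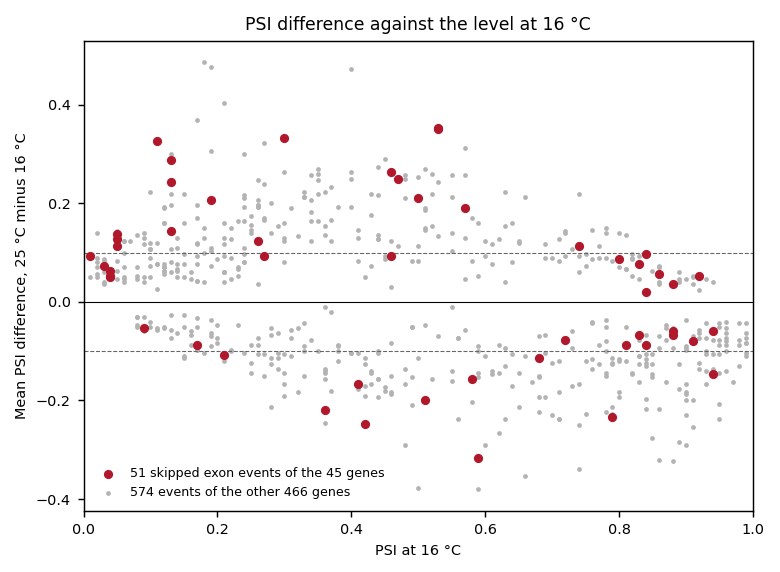
Mean PSI difference over days 1, 3 and 5 (25 °C minus 16 °C, y axis) against PSI at 16 °C (x axis) for the 51 skipped exon events (red) and the 574 events of the other 466 genes (grey), with dashed lines at a difference of 0.1 in either direction. The grey points include 14 skipped exon events of the genes left out. Of the red points at 0.20 or less, 13 of 15 lie above 0, and those at 0.80 or more are split 7 and 8.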

How the data were processed

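The study sequenced RNA of 12 samples, which form 4 groups of 3 by their labels. By its methods, TopHat2 aligned reads to TAIR10, Cufflinks built transcripts, custom scripts found events and MISO gave PSI (versions not given in the sources used here). Events needed a minimum of isoform-specific reads, a smaller PSI gap among replicates than between conditions, and support from pooled replicates by Bayes factor.

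The deposited PSI is a fraction, rounded by the authors to 2 decimals, with 1 value per group and unknown depth. A deposited column with the authors' called days was not used.

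Differences (25 °C minus 16 °C) were taken for each day and averaged, with Python 3.11.15 and pandas 2.3.3, and counted from a minimum of 0.1. No test was possible with 1 value per group. Members, groups and lists were chosen with earlier results of these data known. All PSI values are printed for skipped exon events with a mean difference of at least 0.1, for genes with more than 1 event and for the 5 events with the largest difference between days 5 and 1. Further examples, and the rule for printed exons, which was widened from genes with a single candidate exon, were chosen after values were seen. Of 45 genes, 44 matched RefSeq, and all 40 with coordinates in the table lay inside their RefSeq gene. The exon search was tested on simulated gene models. Alternatives changed the minimum, the days, the counting of related events, the PSI range, the scale, the exon definition and the overlapping genes.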

Additional observations from a re-analysis of the deposited data

Results flagged for a closer look

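AT4G21660, of the proline-rich spliceosome-associated family, was the 1 event of the 45 genes whose difference from 16 °C changed sign between days. The difference was -0.01 on day 1 and 0.05 on day 5. The change of sign was not tested, and -0.01 is the smallest step the rounded values can show.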

How the results depend on the processing

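With a minimum of 0.05 in place of 0.1, 29 skipped exon events were higher and 20 lower. With 0.2 it was 10 and 5, against 17 and 10 as reported. The shares over all events were not counted at 0.05 and 0.2, so these counts have no background. The events higher by 0.2 include the near-identical ones of AT1G62920 and of AT5G18245 with AT5G18250, each counted. Without the genes that overlap another gene, an alternative chosen after seeing the data, 26 events were left, of which 9 were higher and 3 lower. Single days, 1 event per gene, near-identical events counted once (47 events) and PSI at 16 °C of 0.05 to 0.95 gave 13 to 23 higher and 8 to 12 lower. Of these, near-identical events counted once gave 13 higher and 10 lower, nearer to even than as reported. The median absolute difference was 0.130 on day 3, and 0.097 with 1 event per gene and with near-identical events once. In both of these countings the median difference between days 5 and 1 was 0.040. On the log2 odds scale the median absolute difference was 1.31 for skipped exon events and 1.02 for events of the other genes. For 32 events, mostly picked by a mean difference of at least 0.1, 0 of 96 single-day differences had the sign opposite to the mean. Of the 96, 53 lay more than 0.02 from the mean. Picking by a large mean makes an opposite sign unlikely, so the 0 says little about how steady the direction is. AT4G21660, which is not among the 32, had -0.01 on day 1 and a mean difference of 0.020. With any spanning intron accepted, 26 of 44 genes held a candidate exon. No paired analysis was possible because each group has 1 value and the columns carry no replicate.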

Other observations

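The genes were also split by whether RefSeq holds any candidate exon in them, without tying an event to such an exon. The 24 genes with a candidate exon in RefSeq, such as *FSD2*, AT5G18230 and AT3G55080, carried 28 events, 15 higher and 13 lower at 25 °C, with a median absolute difference of 0.087, and 11 of them passed 0.1. The 21 genes without one carried 23 events, 16 higher and 7 lower, with a median of 0.19, and 16 passed 0.1. Among them are AT1G10095, AT1G62920, AT1G19396 and AT1G06710, whose mean differences (0.287 to 0.353 in size) were among the largest of the 51. Large mean differences were also found among the 24 genes, as in AT5G52070 (0.333) and AT5G22620 (0.243). Of all 638 events, 57.5% reached 0.1. The 21 include AT2G33440, which has no RefSeq locus of its own, and the 10 genes with 1 RefSeq transcript. A candidate exon needs another transcript that skips it, so none could be found in these. Near-identical events were each counted: those of AT3G55080 among the 24 genes, and those of AT1G62920 and of AT5G18245 with AT5G18250 among the 21. This split was noticed after the values had been seen, and the difference was not tested.

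In the 13 genes left out for a kinase annotation or by name, 14 skipped exon events were higher in 6 and lower in 8, with mean differences of -0.217 to 0.260.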
